A study of Mus musculus with 6 samples.

Results

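The genes described are the protein-coding semaphorins, plexins, ephrins, Eph receptors, Slits, Robos, netrins and Unc5 receptors of the mouse, matched by their gene names. Of 66 genes with such names in the annotation, 57 of the 24016 genes in the deposited table were analysed: 19 semaphorins, 8 plexins, 8 ephrins, 10 Eph receptors, 3 netrins, 2 Unc5 receptors, 3 Slits and 4 Robos. The other 9 (*Epha3*, *Epha5*, *Epha6*, *Epha7*, *Ntn3*, *Plxna4*, *Sema5b*, *Unc5a* and *Unc5d*) were not among those 24016 genes and so could not be analysed. RNA was sequenced from MC3T3-E1 subclone 4 cells, a wild-type preosteoblast line from mouse calvaria that is 1 clone, after 6 days in medium with ascorbic acid at 50 μg/ml and β-glycerophosphate at 10 mM. Then 3 cultures received vehicle and 3 received 100 nM corticosterone, the main glucocorticoid of rodents, for 24 h, and the labels of both groups also name 10 nM calcitriol, the active form of vitamin D. The comparison asks how the hormone changes gene expression in osteoblasts.

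These families are best known for steering growing axons, and they pass signals between neighbouring cells in many tissues. Semaphorins signal through plexins, with neuropilins as co-receptors for most of the secreted class 3 members. Ephrins are held on the cell surface and bind Eph receptor tyrosine kinases on the next cell, and both sides can signal. Netrins act through Unc5 receptors, DCC and neogenin, and Slits through Robos. In bone, ephrin-B2 and EphB4 connect osteoclasts with osteoblasts, semaphorin 4D from osteoclasts acts on plexin-B1 of osteoblasts and restrains bone formation, and semaphorin 3A from osteoblasts protects bone.

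The deposited values are read counts divided by 1 size factor per library, called normalized counts here, and 16020401 to 25638645 reads per library were counted on genes. Each of the 3 corticosterone libraries held fewer reads than each vehicle library. The 4 glucocorticoid-induced genes used as a check of the treatment, *Fkbp5*, *Tsc22d3*, *Sgk1* and *Per1*, all rose. All 12 osteoblast markers examined were in the table, and 9 were lower and 1 higher (*Spp1*) after corticosterone (adjusted p under 0.05), with *Runx2* at -1.15 on the log2 scale. Of the 12, 11 had a mean normalized count of at least 100, and 34.0% of all such genes were called. With 1 library left out in turn, the calls of *Col1a1*, *Alpl*, *Spp1* and *Ibsp* were lost in 6, 5, 4 and 1 of the 6 tests. The summed normalized counts of 5 endothelial markers were 22.8 to 50.3 with vehicle and 39.8 to 55.0 with corticosterone, and those of 6 neuronal and glial markers 429 to 464 and 396 to 451, most of it from *Syn1*. Of the 6 adipocyte markers 2 were listed, and *Fabp4* rose from 14.8 ± 6.71 to 121 ± 11.5 (SD, n = 3 each) while *Plin1* had reads in 1 library only. Of 5 listed haematopoietic and osteoclast markers 1 was lower (*Ctsk*, -0.36 on the log2 scale), and of 4 listed chondrocyte markers 2 were (*Col2a1*, -0.80, and *Sox9*, -0.16). Whether these shifts have a part in the results below was not tested. In bulk RNA, fewer cells that express a gene and less of its RNA per cell cannot be told apart.

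About as many guidance genes passed the test as did not, and more of them fell than rose after corticosterone. By limma, fitted to log2(normalized count + 1) of all 24016 genes with Benjamini-Hochberg adjustment, 8 of the 57 were higher and 20 lower at an adjusted p under 0.05, which is 49.1% called. Of all genes tested, 17.6% were called, 8.95% higher and 8.64% lower. The median log2 fold change of the 57 was -0.34, against -0.01 over all genes. Abundant genes are called more often: among genes with a mean normalized count of at least 100, 22 of 31 guidance genes and 34.0% of all genes were called. With a log2 fold change beyond 1 as well, the threshold used by the authors, 3 guidance genes were higher (*Sema3e*, *Sema3f* and *Plxna2*) and 6 lower (*Sema4d*, *Sema5a*, *Sema6a*, *Sema7a*, *Slit2* and *Robo2*), where 2.98% of all genes passed, 1.47% higher and 1.51% lower. The 3 corticosterone libraries lay above the 3 vehicle libraries in 9 guidance genes and below them in 29, and such separation was seen in 29.6% of all genes, 14.7% above and 14.9% below. In each of the 28 called genes the 2 groups did not overlap, with a two-sided exact permutation p of 0.1, the smallest that 3 against 3 allow. With 1 library left out in turn, 17 of the 28 calls held in all 6 fits, and calls over all genes went from 4224 to between 2220 and 2743. The number of lower guidance genes was then 13 to 16 in place of 20, with 13 without the first or the second corticosterone library or without the third vehicle library.

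**Figure D1:**
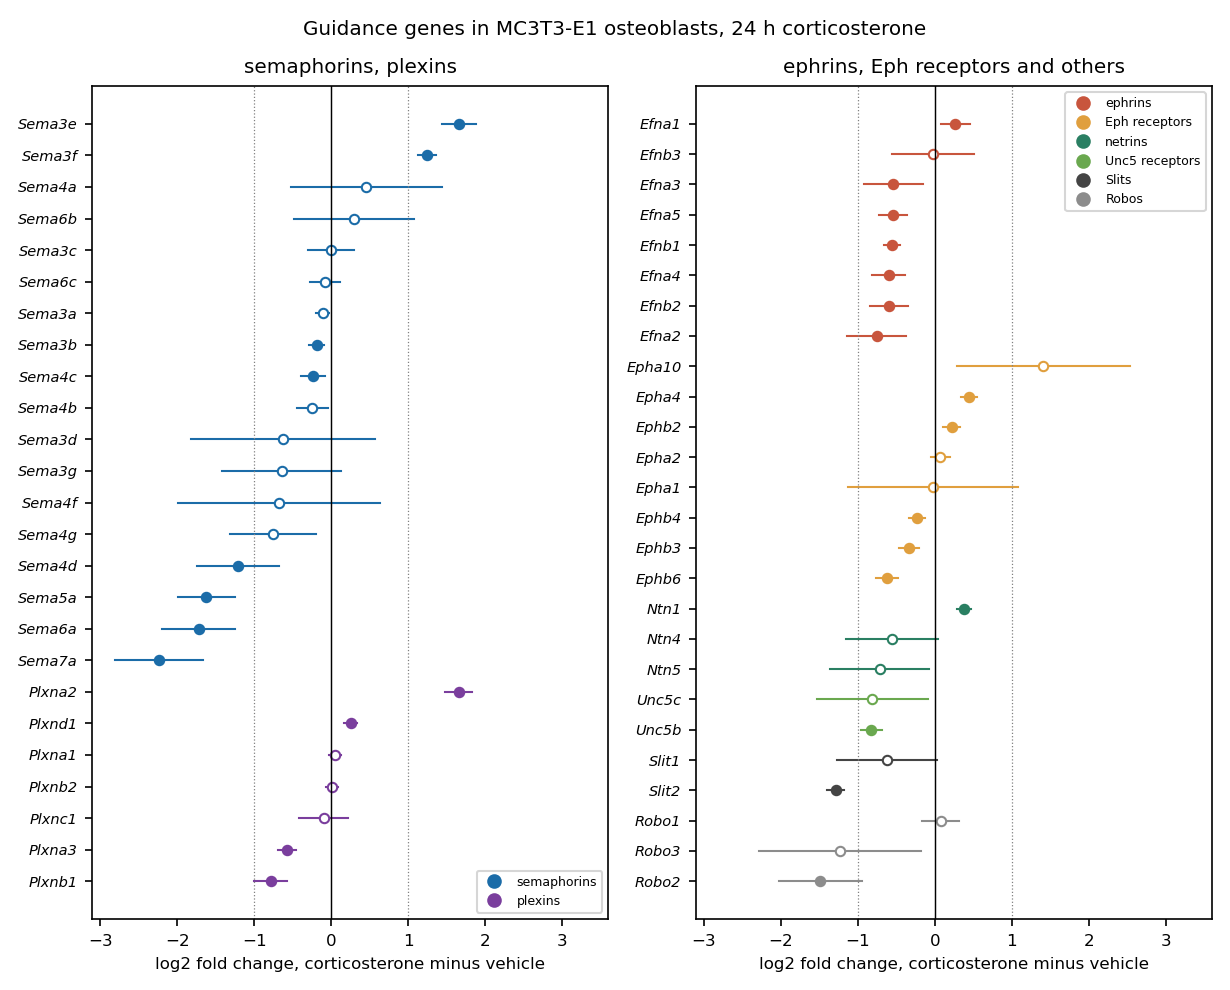
Log2 fold change, corticosterone minus vehicle, of the 51 guidance genes with more than 3 reads in a library, by family, with the 95% confidence interval of the limma fit as a line and filled points for an adjusted p under 0.05. Dotted lines mark a log2 fold change of 1 in each direction. Of the 8 ephrins, 6 filled points lie left of 0, whereas the semaphorins have filled points beyond both dotted lines and the plexins 1 beyond the right line.

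Of the 19 semaphorins, 2 rose and 6 fell. Of the 7 secreted class 3 members, *Sema3e* and *Sema3f* rose and *Sema3b* fell. Among the 12 membrane-bound members of classes 4 to 7 none rose and 5 fell, where 8.95% of all genes were called higher and 8.64% lower. Whether the secreted and the membrane-bound members differ was not tested. *Sema3e* (ENSMUSG00000063531, chromosome 5, 14025276 to 14256689 of GRCm38, plus strand), whose product binds plexin-D1 without a neuropilin, had normalized counts of 198, 178 and 190.3 with vehicle and 694, 474 and 643 with corticosterone. All 3 corticosterone libraries were over 2 times the highest vehicle library, with more spread among them than among the vehicle libraries. The mean was 3.20-fold higher, a log2 fold change of 1.65 (SE 0.11, adjusted p = 3.2e-12). *Sema3f* (ENSMUSG00000034684, chromosome 9, 107681500 to 107710475, minus strand), a ligand of neuropilin-2, had 735, 727 and 675 with vehicle and 1619.9, 1717 and 1721 with corticosterone. Its libraries stood close together within each treatment, and the rise was 2.37-fold, a log2 fold change of 1.24 (SE 0.06, adjusted p = 3.2e-15).

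Of the other class 3 members, *Sema3b* was called and 4 were not. *Sema3a*, the most read of the semaphorins, had 5462, 5297 and 5406 with vehicle and 4999, 5099 and 4860.0 with corticosterone. The 2 groups did not overlap, yet the log2 fold change of -0.11 (95% confidence interval -0.20 to -0.03) did not pass (adjusted p = 0.063). With edgeR on the whole reads the adjusted p of *Sema3a* was 0.041, so its call depends on the test. *Sema3b* had 2234, 2159 and 2135 with vehicle and 1875, 1915 and 1951 with corticosterone and fell slightly, with a log2 fold change of -0.19 (SE 0.05, adjusted p = 0.0056), but without the first corticosterone library the adjusted p was 0.055. *Sema3c* had 309, 269 and 340.3 with vehicle and 407, 326 and 212 with corticosterone, with overlapping groups and corticosterone libraries that differed by nearly 2 times. *Sema3g* had at most 26 and *Sema3d* at most 6 reads in a library.

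*Sema7a* (ENSMUSG00000038264, chromosome 9, 57940112 to 57962865, plus strand) encodes a semaphorin with a lipid anchor that binds plexin-C1 and β1 integrins. It fell most of the 57 genes. Its normalized counts were 57.6, 83.4 and 82.7 with vehicle and 11.8, 16.6 and 16.6 with corticosterone, so the vehicle mean was 4.97 times the corticosterone mean, a log2 fold change of -2.24 (SE 0.28, adjusted p = 6.3e-07). *Sema6a* (ENSMUSG00000019647, chromosome 18), a transmembrane ligand of plexin-A2 and plexin-A4, had 79.5, 107 and 75.5 with vehicle and 26.8, 25.4 and 24.3 with corticosterone. The corticosterone libraries were nearly alike and all far below the lowest vehicle library, with a log2 fold change of -1.72 (SE 0.23, adjusted p = 1.9e-06). *Sema5a* (ENSMUSG00000022231, chromosome 15, 32244810 to 32696341, plus strand), a transmembrane semaphorin with thrombospondin repeats, had 146, 198 and 164 with vehicle and 51.4, 70.7 and 43.5 with corticosterone and a log2 fold change of -1.62 (SE 0.18, adjusted p = 8.5e-08). *Sema4d* (ENSMUSG00000021451, chromosome 13, 51685529 to 51793747, minus strand), the ligand of plexin-B1, had 61.6, 61.0 and 59.0 with vehicle and 18.2, 30.9 and 29.4 with corticosterone. The first corticosterone library was the lowest, and the log2 fold change was -1.21 (SE 0.26, adjusted p = 9.9e-04). Its adjusted p reached 0.07 over the 3 fits that left out 1 vehicle library, none of which called it, with log2 fold changes of -1.35 to -0.98 over all 6 such fits, whereas *Sema5a*, *Sema6a* and *Sema7a* held their calls without each library. These 4 genes had few reads, from 11 to 108 for *Sema7a* to 34 to 257 for *Sema5a*.

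Of the other membrane-bound semaphorins, *Sema4c* had 447, 439.9 and 474 with vehicle and 384, 389 and 379 with corticosterone, and fell slightly (log2 fold change -0.24, SE 0.08, adjusted p = 0.027), a call that was lost in 5 of the 6 fits without 1 library (adjusted p up to 0.074), all but that without the second vehicle library. *Sema6c* (349 ± 49.5 with vehicle and 328 ± 9.14 with corticosterone, SD, n = 3 each) and *Sema4b* (277 ± 10.2 with vehicle and 234 ± 19.2 with corticosterone, SD, n = 3 each) did not pass. *Sema4g* had -0.75 on the log2 scale (adjusted p = 0.057). *Sema4a* and *Sema6b* had at most 26 reads in a library, and *Sema4f* and *Sema6d* at most 4. No change was detectable in these 4 at this depth.

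**Figure D2:**
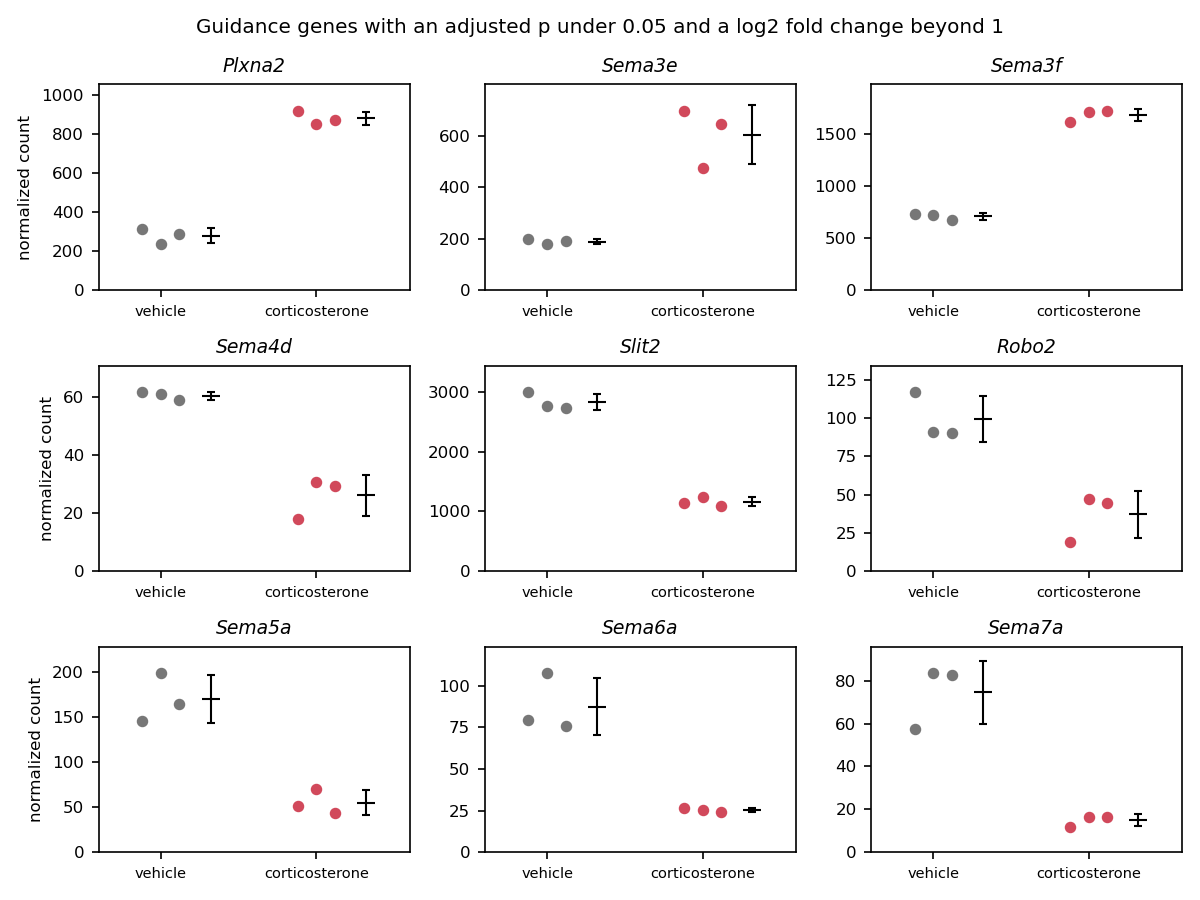
Normalized counts of the 9 guidance genes with an adjusted p under 0.05 and a log2 fold change beyond 1. Each point is 1 library, in grey for vehicle and red for corticosterone, beside the mean with its SD (n = 3), and the axes start at 0. In every panel the groups are apart, and in *Sema4d* and *Robo2* the first corticosterone library lies below the other two.

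Plexins are the main semaphorin receptors. Of the 8, 2 rose, 2 fell and 4 did not pass, among them *Plxnb2*, the most read. Among all genes with a mean of at least 100, as 7 of the 8 had, 17.8% were called higher and 16.3% lower. *Plxna2* (ENSMUSG00000026640, chromosome 1, 194618218 to 194816869, plus strand), a receptor of semaphorin 6A and, with neuropilins, of class 3 semaphorins, had 315, 237 and 289 with vehicle and 914, 852 and 869.9 with corticosterone. The rise was 3.13-fold, a log2 fold change of 1.65 (SE 0.09, adjusted p = 3.9e-14), and stayed at 1.54 to 1.74 on the log2 scale without any 1 library. *Plxnd1*, the receptor of semaphorin 3E, had 6862, 6912 and 7119 with vehicle and 8028, 8298 and 8567 with corticosterone, and rose slightly (log2 fold change 0.25, SE 0.04, adjusted p = 3.2e-05). *Sema3e* and *Plxnd1* therefore both rose, whereas *Sema6a* fell and *Plxna2* rose.

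*Plxna3*, which pairs with neuropilin-2 as a receptor of semaphorin 3F, had 1290.1, 1240.3 and 1366 with vehicle and 874, 847 and 903 with corticosterone, a log2 fold change of -0.57 (SE 0.06, adjusted p = 1.7e-08), and so fell while *Sema3f* rose. *Plxnb1*, the receptor of semaphorin 4D, had 298, 329.6 and 287 with vehicle and 165, 170.1 and 194 with corticosterone, a log2 fold change of -0.79 (SE 0.10, adjusted p = 1.6e-06), and fell as its ligand gene did. *Plxnb2* had 12263, 12295 and 12083 with vehicle and 11959, 12127 and 12821 with corticosterone. These groups overlapped, and the log2 fold change of 0.01 had a 95% confidence interval of -0.07 to 0.09. For *Plxna1* (7421 ± 175 with vehicle and 7670.0 ± 78.3 with corticosterone, SD, n = 3 each) the interval was -0.03 to 0.13, and *Plxnc1*, the plexin that binds semaphorin 7A, had 119, 139 and 103 with vehicle and 116, 93.9 and 129 with corticosterone with overlapping groups and an interval of -0.41 to 0.22. *Plxna1* shares 10.7% of its exon bases with *Gm26811*, and *Plxnb3* had at most 2 reads in a library.

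Of the 8 ephrin genes, 6 fell and 1 rose, where 8.64% of all genes were called lower and 8.95% higher. Among all genes with a mean of at least 100, as 5 of the 8 had, 16.3% were lower and 17.8% higher. *Efna1* was the 1 that rose, and *Efnb3* (38.0 ± 3.26 with vehicle and 37.7 ± 7.13 with corticosterone, SD, n = 3 each) did not pass. Of the 7 calls, those of *Efnb1*, *Efna4* and *Efna5*, all lower, held without each library, and the median log2 fold change was -0.55. None of the 8 changed by a log2 fold change beyond 1. *Efnb1*, whose loss of function disturbs the formation of the cranial sutures, was by far the most read ephrin, with 4704, 4861 and 4709 with vehicle and 3098, 3065 and 3559 with corticosterone. The vehicle mean was 1.47 times the corticosterone mean, a log2 fold change of -0.56 (SE 0.05, adjusted p = 2.2e-09). *Efnb2*, known from the dialogue of osteoclasts with osteoblasts, had 272, 396 and 360.0 with vehicle and 189.5, 252 and 233 with corticosterone. The lowest vehicle library lay close above the highest corticosterone library, and the log2 fold change was -0.60 (SE 0.12, adjusted p = 5.3e-04). Its adjusted p reached 0.19 with 1 library left out, and the call held only in the fit without the first vehicle library, which is the lowest of its group.

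The ephrins of class A are anchored in the membrane by a lipid. *Efna5* had 422, 418 and 425 with vehicle and 305, 307 and 258 with corticosterone, with hardly any spread among the vehicle libraries and a log2 fold change of -0.54 (SE 0.09, adjusted p = 2.6e-05). *Efna4* had 295, 278 and 293 with vehicle and 185, 214 and 174 with corticosterone, a log2 fold change of -0.60 (SE 0.10, adjusted p = 7.8e-05). *Efna2* and *Efna3* have lower means and were added after their values were seen. *Efna2* had 84.3, 144 and 104 with vehicle and 64.2, 67.4 and 60.1 with corticosterone, a log2 fold change of -0.75 (SE 0.19, adjusted p = 0.0042). *Efna3* had 79.5, 81.0 and 81.7 with vehicle and 56.7, 58.5 and 51.2 with corticosterone, a log2 fold change of -0.54 (SE 0.18, adjusted p = 0.045). *Efna1*, the only ephrin that rose, had 240.0, 265 and 271 with vehicle and 291, 326 and 319 with corticosterone, a log2 fold change of 0.27 (SE 0.09, adjusted p = 0.044).

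The other calls in class A did not hold in all 6 fits with 1 library left out. *Efna1* and *Efna3* lost theirs with any 1 library left out (adjusted p up to 0.17 and 0.095) and with DESeq2 (0.11 and 0.10). With the replicate number as a block, *Efna3* had an adjusted p of 0.051. *Efna2* kept its call only without the first vehicle library (adjusted p up to 0.14 otherwise). *Efna3* and *Efna4*, which lie near each other on chromosome 3, share exon bases with other genes. *Efna3* shares 14.1% with *Gm15998* and *Efna4* 10.5% with *4731419I09Rik*, and the origin of reads there cannot be told from these counts.

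The Eph receptors went in both directions by small steps. Of the 10, 2 rose and 3 fell, none with a log2 fold change beyond 1. Among all genes with a mean of at least 100, as 6 of the 10 had, 17.8% were called higher and 16.3% lower. *Epha4*, which binds ephrins of both classes, rose from 1204, 1175 and 1216 with vehicle to 1616, 1590.4 and 1685 with corticosterone, a log2 fold change of 0.44 (SE 0.05, adjusted p = 2.1e-07). *Epha2* had 1117, 1326 and 1199.8 with vehicle and 1231, 1341 and 1258 with corticosterone, with overlapping groups and a 95% confidence interval of -0.05 to 0.20 on the log2 scale. The receptors of class B that fell were *Ephb6*, a member without kinase activity, *Ephb3* and *Ephb4*. *Ephb6* had 706, 709 and 686 with vehicle and 449.7, 453 and 464 with corticosterone, a log2 fold change of -0.62 (SE 0.07, adjusted p = 5.6e-08), with little spread in either group.

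*Ephb4*, the partner of ephrin-B2 and the most read Eph receptor, had 2617, 2497 and 2668 with vehicle and 2118, 2178 and 2356 with corticosterone, and fell (log2 fold change -0.23, SE 0.05, adjusted p = 0.0013). *Ephb3* had 1020.1, 1027 and 1158 with vehicle and 832, 817 and 888 with corticosterone and fell (log2 fold change -0.34, SE 0.06, adjusted p = 2.1e-04). *Ephb2* rose, with 1670.4, 1456 and 1692 with vehicle and 1818, 1838 and 1939 with corticosterone and a log2 fold change of 0.22 (SE 0.06, adjusted p = 0.0062). None of these 3 calls held in all 6 fits with 1 library left out. *Ephb2* lost its call in all 6 fits without 1 library (adjusted p up to 0.18), *Ephb4* in 4, all but those without the third corticosterone or the second vehicle library (up to 0.099), and *Ephb3* without the first or the second corticosterone library (up to 0.062). *Epha10* had 4.05, 2.32 and 2.07 with vehicle and 7.49, 14.4 and 6.40 with corticosterone, from 2 to 13 reads per library, and did not pass (adjusted p = 0.08). *Epha1*, *Epha8* and *Ephb1* had at most 6 reads in a library.

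**Figure D3:**
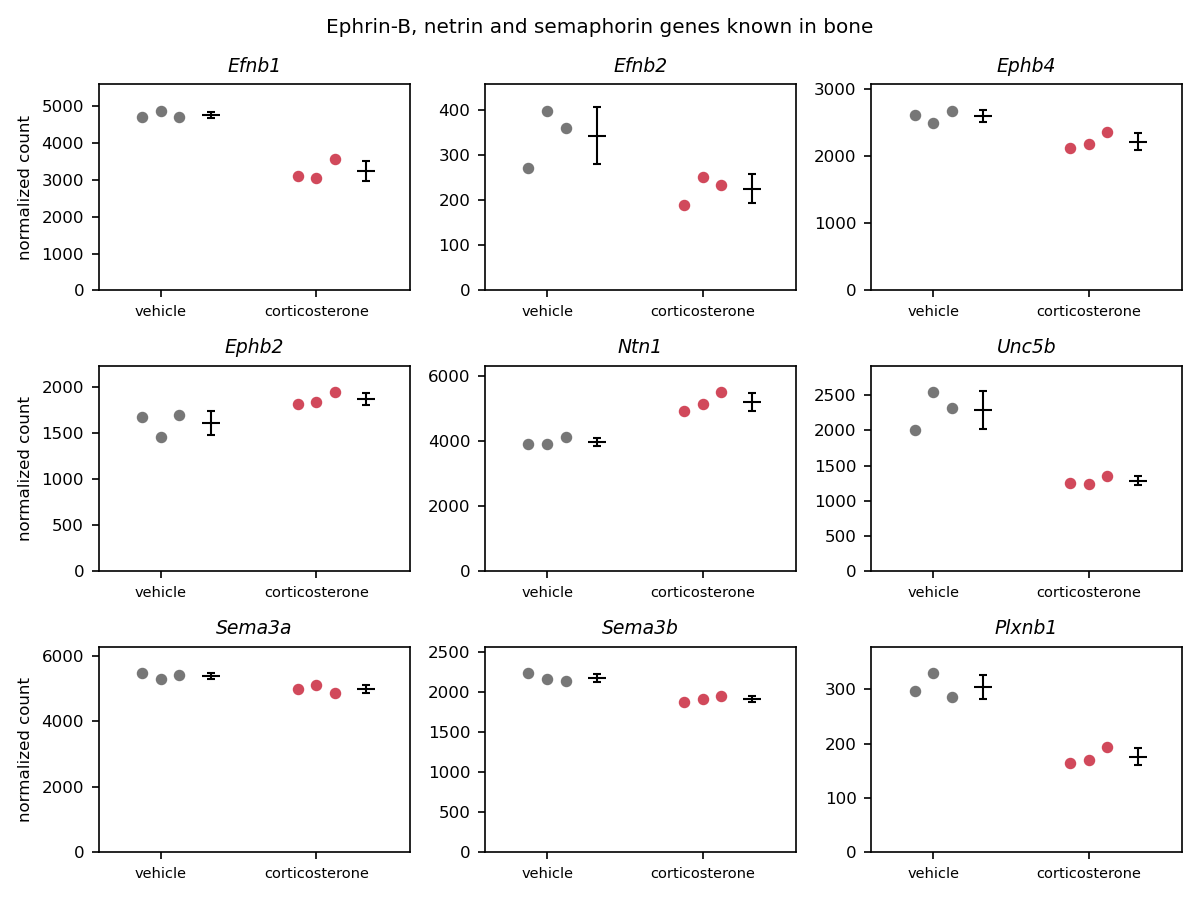
Normalized counts of 9 guidance genes, among them those best known in bone. Each point is 1 library, in grey for vehicle and red for corticosterone, with the mean and SD (n = 3) beside them and axes from 0. *Ntn1* and *Ephb2* are higher with corticosterone and the other 7 lower, of which *Sema3a* did not pass the test.

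Netrin-1 and its receptor Unc5b went opposite ways. *Ntn1*, a secreted ligand, had 3897, 3908 and 4122 with vehicle and 4932, 5141 and 5492 with corticosterone, a 1.31-fold rise with a log2 fold change of 0.38 (SE 0.05, adjusted p = 3.1e-07). *Unc5b*, a netrin receptor, had 2000.4, 2541 and 2321 with vehicle and 1261, 1246 and 1359.9 with corticosterone. The vehicle mean was 1.77 times the corticosterone mean, a log2 fold change of -0.82 (SE 0.06, adjusted p = 1.6e-10), and both calls held without each library. *Neo1*, which encodes neogenin, had 2768, 2743 and 2954 with vehicle and 2583, 2423 and 2489.5 with corticosterone and fell slightly (log2 fold change -0.18, SE 0.05, adjusted p = 0.0086), a call lost with any 1 library left out (adjusted p up to 0.11). *Ntn4* (39.9 ± 11.6 with vehicle and 26.4 ± 5.26 with corticosterone, SD, n = 3 each), *Ntn5* (34.6 ± 3.09 with vehicle and 21.4 ± 6.84 with corticosterone, SD, n = 3 each) and *Unc5c* (27.6 ± 6.61 with vehicle and 15.2 ± 3.13 with corticosterone, SD, n = 3 each) had lower means after corticosterone but did not pass (adjusted p = 0.23, 0.13 and 0.12). *Ntn5* shares 23.4% of its exon bases with *Sec1*. *Dcc*, which encodes the netrin receptor DCC, was not among the 24016 genes.

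Slit2 and one of its receptors fell together. *Slit2* (ENSMUSG00000031558, chromosome 5, 47983138 to 48307733, plus strand), a secreted ligand of Robo1 and Robo2, had 2986, 2766 and 2728 with vehicle and 1149, 1240.3 and 1089 with corticosterone. The vehicle mean was 2.44 times the corticosterone mean, a log2 fold change of -1.29 (SE 0.05, adjusted p = 6.8e-16), the lowest adjusted p of the 57 genes. *Robo2* (ENSMUSG00000052516, chromosome 16, 73891839 to 74411825, minus strand) had 117, 91.1 and 90.0 with vehicle and 19.3, 47.5 and 44.8 with corticosterone. The first corticosterone library held 18 reads and was far below the other two, and the log2 fold change was -1.48 (SE 0.26, adjusted p = 9.4e-05). Without the second corticosterone library, or without any 1 vehicle library, the adjusted p of *Robo2* was over 0.05 and reached 0.13, with log2 fold changes of -1.71 to -1.08 over the 6 fits. *Robo1* had 182, 165 and 180.0 with vehicle and 169, 182 and 207 with corticosterone, with overlapping groups and a 95% confidence interval of -0.16 to 0.32. *Slit1* (31.7 ± 8.40 with vehicle and 19.9 ± 1.95 with corticosterone, SD, n = 3 each) and *Robo3* (12.5 ± 3.97 with vehicle and 5.11 ± 2.79 with corticosterone, SD, n = 3 each) did not pass. *Slit3*, which is known as a product of bone cells, and *Robo4*, a receptor of endothelial cells, had at most 2 and 1 reads in a library, with *Slit3* at 0.811, 0.772 and 2.07 with vehicle and 1.07, 1.10 and 0 with corticosterone, so no change was detectable at this depth.

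Levels of different genes were compared per kilobase of annotated exon. On this scale *Plxnb2* was the highest of the 57 in both groups, with 1582 ± 14.8 normalized counts per kb with vehicle and 1594 ± 59.2 with corticosterone (SD, n = 3). *Efnb1* came next with vehicle (1378 ± 25.8) and was next below *Plxnd1* with corticosterone (939 ± 80.0), where *Plxnd1* had moved above it (954 ± 18.7 and 1137 ± 37.0). *Plxna1*, *Ntn1* and *Ephb4* followed in both groups, and *Plxna1* (847 ± 8.65) and *Ntn1* (827 ± 45.0) lay within their spread of each other with corticosterone. *Sema3b* (455 ± 10.8) and *Sema3a* (389 ± 6.05) led the semaphorins with vehicle. *Sema3f* moved from place 17 to 9 of the 57, and *Sema7a* from 29 to 37.

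The next values are shares and sums within families, given with no test. Of the summed semaphorin level per kb, *Sema3f* made up 10.4% ± 0.495 with vehicle and 23.1% ± 0.877 with corticosterone (SD, n = 3), and *Sema3e* 1.54% ± 0.0737 and 4.64% ± 0.880, while *Sema3b* and *Sema3a* together held the largest parts in both groups. The semaphorin sum itself was 1309 to 1321 normalized counts per kb with vehicle and 1395 to 1408 with corticosterone. The 2 groups were apart in this sum and in every other family sum below, and 29.6% of all single genes separated in the same way. The plexin sum was 3561 to 3603 and 3682 to 3891. The ephrin sum was 1906 to 2001 with vehicle and 1343 to 1471 with corticosterone, and *Efnb1* made up 70.6% ± 0.778 and 67.1% ± 2.90 of it. For the Eph receptors the sums were 1427 to 1475 and 1312 to 1399, for the Slits 114 to 121 and 46.3 to 51.9. Unc5 receptors had 321 to 407 and 200.1 to 218, and Robos 17.6 to 19.6 and 11.9 to 16.6. Netrins had 646 to 679.8 and 805 to 887, of which *Ntn1* was 96.0% ± 0.647 and 98.0% ± 0.544. Sums follow the most abundant member, and annotated exon length can exceed that of the transcripts present.

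**Figure D4:**
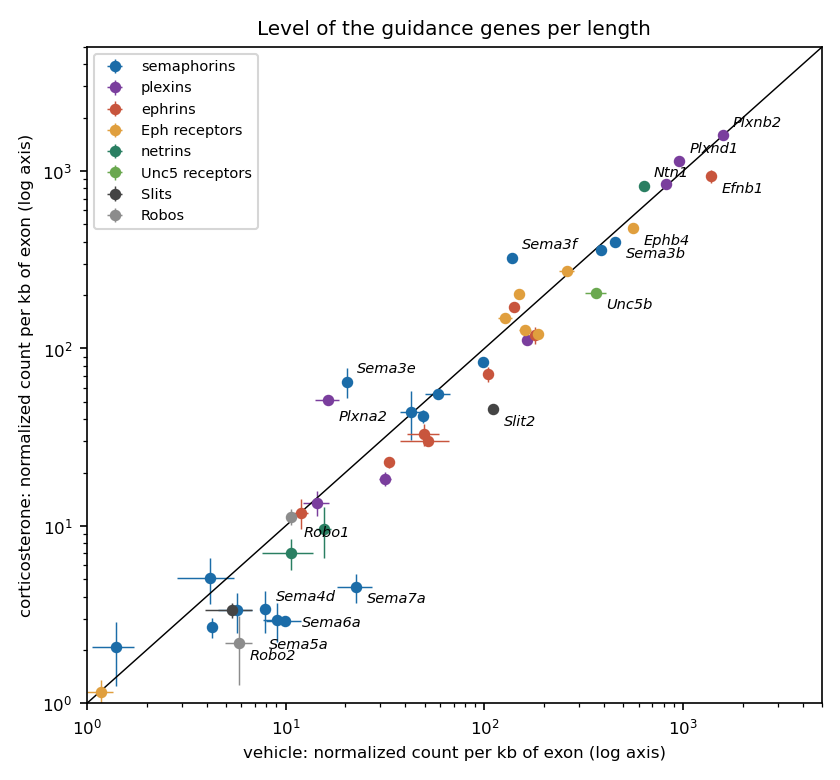
Level per kb of exon of the guidance genes above 1 normalized count per kb in both groups, with vehicle on the x axis and corticosterone on the y axis (both log axes). Points are means and bars the SD (n = 3), and the line marks equal levels. *Sema3f*, *Sema3e* and *Plxna2* lie above the line, and *Slit2*, *Sema7a*, *Sema5a*, *Sema6a*, *Sema4d* and *Robo2* below it.

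Genes that work with these families were taken from a list of 62 co-receptors, ligand modulators and cytoplasmic effectors, of which 56 were in the table. At an adjusted p under 0.05, 13 were higher and 18 lower, which is 55.4% called where 17.6% of all genes were, and the median log2 fold change was -0.07. Most of these genes are abundant, and of the 45 with a mean of at least 100, 29 were called where 34.0% of such genes were. Of 8 co-receptors and alternative receptors 3 rose and 3 fell, of 10 further ligands and modulators 1 rose and 3 fell, and of 38 effectors 9 rose and 12 fell.

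*Nrp2*, *Nrp1*, *Itga1* and the *Neo1* values above were added after their values were seen, as partners of ligands already described. *Nrp2*, which encodes the neuropilin of semaphorin 3F, had 4513, 5051 and 5057 with vehicle and 3321, 3423 and 3284 with corticosterone and fell (log2 fold change -0.54, SE 0.05, adjusted p = 1.1e-09). *Sema3f* thus rose while *Nrp2* and *Plxna3*, the genes of the receptor pair named above, both fell. The other class A plexin genes analysed did not fall. *Plxna2*, whose product also binds class 3 semaphorins with neuropilins, rose (log2 fold change 1.65), and *Plxna1* did not pass. *Nrp1*, which encodes the neuropilin of semaphorin 3A, had 289, 319.5 and 398 with vehicle and 328, 326 and 315 with corticosterone, with overlapping groups. *Itgb1*, the integrin subunit bound by semaphorin 7A, had 12598, 12097 and 12036 with vehicle and 18083, 17601 and 17939.6 with corticosterone and rose (log2 fold change 0.55, SE 0.04, adjusted p = 2.0e-11). *Itga1*, the α subunit that pairs with it as a semaphorin 7A receptor, had 1021, 895 and 1000.2 with vehicle and 1619.9, 1609 and 1732 with corticosterone and rose as well (log2 fold change 0.77, SE 0.06, adjusted p = 8.1e-11).

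*Ngef*, which encodes ephexin-1, which acts below EphA receptors, had 109, 118 and 131 with vehicle and 7.49, 2.21 and 3.84 with corticosterone. Its log2 fold change of -4.56 (SE 0.35, adjusted p = 9.7e-11) was lower than that of any of the 57 guidance genes, and rested on 2 to 153 reads per library. *Pak1*, a kinase under Rac and Cdc42, had 1254, 1230.3 and 1092 with vehicle and 2578, 2387 and 2401 with corticosterone and rose (log2 fold change 1.04, SE 0.06, adjusted p = 7.7e-14). These were the 2 called genes of the list with a log2 fold change beyond 1, and without the third vehicle library the log2 fold change of *Pak1* was 0.98. *Farp1*, one of the most read partners, had 3630.3, 3694 and 3428 with vehicle and 6599, 6551 and 6718 with corticosterone and rose (log2 fold change 0.89, SE 0.04, adjusted p = 8.2e-15). *Gpc1*, a heparan sulfate proteoglycan that binds Slits, had 5551, 6503 and 6041 with vehicle and 3234, 3461 and 3549 with corticosterone and fell (log2 fold change -0.82, SE 0.05, adjusted p = 1.6e-12). *Ptk7*, a receptor without kinase activity that associates with plexins, fell (log2 fold change -0.40, SE 0.04, adjusted p = 8.2e-08), *Abl1*, a tyrosine kinase that acts below Robos, had a log2 fold change of 0.21 (SE 0.04, adjusted p = 5.6e-04), and *Ptpn11*, a tyrosine phosphatase, did not pass (95% confidence interval -0.05 to 0.11 on the log2 scale).

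Promoters were searched for the letters of the glucocorticoid response element, which is AGAACA, any 3 bases and TGTTCT, and for its half-site AGAACA on either strand. RefSeq windows of 300 bases (250 before and 50 after the start, GRCm38.p6) were given for 50 of the 57 genes, 65 windows in all, while *Efnb3*, *Ntn1*, *Plxna1*, *Sema3b*, *Sema3f*, *Sema6a* and *Slit1* had none. The whole element was in 0 of the 65 windows and in 3 of 32851 windows of all genes. A half-site was in 8 of the 65 windows (12.3%) and in 19.0% of all windows. Half-sites were at 5 genes: the called *Plxna3*, *Plxnd1* and *Sema4d*, and the uncalled *Sema6b* and *Sema6d*. A half-site was in 5 of the 31 windows of called genes. Only half-sites of the called genes follow, where the 30 printed bases lie wholly inside the window and before the start. They are given 5′ to 3′ on the strand of the gene, with the half-site in capitals. Whether half-sites go with calls was not tested. The letters begin 237 bases before the start in *Plxnd1*, 199 and 146 before 2 different starts of *Sema4d*, and 199 before that of *Plxna3*, where they lie on the other strand. These are matches of letters and not measured binding.
Plxnd1, chr6:115995225-115995254, - strand: gagcccagaaacAGAACAgagaaggtacta
Sema4d, chr13:51748992-51749021, - strand: ggcccacattgtAGAACAgccctgctattt
Sema4d, chr13:51756812-51756841, - strand: tagtaattggtgAGAACAgctacagggaaa
Plxna3, chrX:74328855-74328884, + strand: agcaaagggggcTGTTCTcaggaagggatc

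Of the 57 genes, 12 had a mean normalized count under 10 and none of these was called, while 14 had a mean of 10 to 100 and 31 of at least 100. In 51 genes at least 1 library held more than 3 reads. In the other 6 (*Epha8*, *Ephb1*, *Robo4*, *Slit3*, *Plxnb3* and *Sema6d*) no library exceeded 3 reads, the floor used here, and no fold is given for them.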

How the data were processed

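RNA-seq libraries of 6 MC3T3-E1 cultures, 3 per treatment, were prepared with the NEB Next Ultra RNA kit and processed on mm10. The paper states that Novogene did the sequencing as a commercial service. The aligner, counter, annotation and strandedness are not given in the sources used here. The deposited signal values are headed FPKM, but the authors' table holds read counts divided by 1 size factor per library: every value gave whole reads within a tolerance of 0.01. The planned test for normalized values was therefore used, limma 3.58.1 in R 4.3.3 on log2(normalized count + 1) with a variance trend, over all 24016 genes without a filter and with Benjamini-Hochberg adjustment. Fold changes on this scale understate those of genes with few reads. A gene was called at an adjusted p under 0.05, and counted as past the fold with an absolute log2 fold change over 1, the authors' DESeq2 threshold.

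Alternatives were pseudocounts of 0.1 and 0.5, a mean of at least 10, no variance trend, other scalings, thinning of the reads to the smallest library, a block for the replicate number, edgeR 4.0.16, DESeq2 1.42.0 and leaving out each library. Scripts were tested on simulated data. Members were matched by name through GENCODE M21 (GRCm38), and 23983 of 24016 identifiers had a symbol. Members and lists were chosen with earlier results of these data known. Genes given in full were those past the fold, those called with a mean of at least 100, and those best known in bone; of the partners, those past the fold and the 6 others with the highest means. Per-kb levels divide by all annotated exon bases. The study's methods call the cultures biological replicates. The limma p-values and SEs do not rest on the spread of a gene's own cultures alone. They draw it toward the spread of other genes of similar level. The replicates of a treatment differed by more than sampling noise. Same-numbered libraries did not deviate together (correlations of -0.02, 0.01 and 0.02 over 13880 genes), so the numbers were not used to pair them.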

Additional observations from a re-analysis of the deposited data

How the results depend on the processing

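Over 18 alternatives, 16 of the 28 called guidance genes stayed called in all, 12 lost the call in at least 1, none changed direction, and 4 uncalled genes (*Sema3a*, *Sema3g*, *Sema4b* and *Sema4g*) were called in at least 1. The 3 higher and 6 lower genes past the fold kept their direction. All 3 higher ones stayed past both thresholds, while the lower ones numbered 4 to 6 with 1 library left out and 5 without a variance trend. Without a variance trend, 5 guidance genes were higher in place of 8 and 14 lower in place of 20. In that setting 7 partners were higher in place of 13 and 9 lower in place of 18, as calls over all genes fell to 1670. With 1 library left out, 13 to 16 guidance genes were lower, 10 to 12 partners were lower, 0 to 1 partner was higher past the fold (0 without the third vehicle library) and 1 to 2 were lower past it (2 without the third corticosterone library). Thinned to the smallest library, 6 guidance genes were higher and 19 lower. With the replicate number as a block, limma called 8 guidance genes higher and 19 lower, losing *Efna3*, and edgeR 8 and 22, and both kept 3 higher and 6 lower past the fold. With that block 13 partners were higher and 18 lower in limma. Each of the other scalings moved the median log2 fold change of all genes by less than 0.05. The causes were not tested. A count of 3 reads, the floor, corresponded to 2.32 to 3.84 normalized counts, which limits what can be seen in the genes with few reads.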
